A study of Homo sapiens with 5 samples.

Results

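The 7 genes described here, TCERG1L, DPP6, PTPRT, TMEM132C, TMEM132D, FZD10 and CSMD1, are named in work on human induced pluripotent stem cells (iPSCs) as loci whose DNA methylation can differ between cell lines after reprogramming. A window of 1000 bases was taken as a member when the deposited table assigned it to one of these genes, or when it overlapped the gene with 1500 bases on each side, which gave 629 of the 288391 windows. Of these, 98 came from the assignment alone, 386 from the overlap alone and 145 from both. The genes held 138 windows (TCERG1L), 127 (DPP6), 82 (PTPRT), 49 (TMEM132C), 87 (TMEM132D), 11 (FZD10) and 135 (CSMD1).

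The study exposed the established human iPSC line HPS0063 (201B7), labelled as WT in genotype, for 48 h to 10 nM 5-aza-dc, to theophylline or propyl gallate at 1 µM each, to 1 nM etoposide, or to 0.1% DMSO alone as the vehicle control. Methylation was read by reduced representation bisulfite sequencing (RRBS), which enriches CpG-rich fragments by restriction digestion and converts unmethylated cytosines before sequencing. The study does not state whether the cells read by RRBS carried the fluorescent methyl-CpG-binding reporter of its other assays. The β-value of a window is the percentage of its cytosine calls in CpG that were methylated. Each condition is 1 library from 1 line, so no difference between conditions can be set against a spread between cultures, and all 4 chemicals are compared with the same vehicle control library. The 5 libraries held 188844850 to 228919184 calls in the shared windows, and the member windows a median of 281 to 374 calls per library. A single read can hold several calls and can be copied by PCR, so each 95% interval below covers counting error only.

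Reprogramming of a somatic cell to an iPSC resets most methylation at CpG islands and gene bodies, and a small set of loci, several of them long genes expressed in brain, is known to be reset incompletely or excessively in some lines. Cytosine methylation in CpG is kept through cell division by the maintenance methyltransferase DNMT1, and 5-aza-dc (5-aza-2′-deoxycytidine) traps the methyltransferases on DNA. Etoposide is a topoisomerase II inhibitor, propyl gallate an antioxidant food additive, and theophylline a methylxanthine of tea.

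The sequence just upstream of the transcription start is shown for the starts on which the promoter results turn, to let the CpG density behind each window be seen, as the 250 bases before a RefSeq start (GRCh38.p14), written 5′ to 3′ on the strand of the gene with each CpG in capitals. The first is DPP6 at chr7:153886792-153887041, plus strand, beside the only island promoter window of the 7 genes over 5%. The second is an internal DPP6 start at chr7:154052148-154052397, the third a DPP6 start upstream of the gene as the deposited table places it, at chr7:153747883-153748132, and the others are TCERG1L at chr10:131311722-131311971 and TMEM132D at chr12:129904026-129904275, both on the minus strand.
DPP6: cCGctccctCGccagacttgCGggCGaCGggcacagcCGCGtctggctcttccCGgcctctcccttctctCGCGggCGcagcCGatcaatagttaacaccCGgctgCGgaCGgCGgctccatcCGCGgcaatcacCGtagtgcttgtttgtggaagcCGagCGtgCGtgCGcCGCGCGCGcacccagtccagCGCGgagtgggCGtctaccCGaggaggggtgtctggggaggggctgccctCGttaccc
DPP6 internal start: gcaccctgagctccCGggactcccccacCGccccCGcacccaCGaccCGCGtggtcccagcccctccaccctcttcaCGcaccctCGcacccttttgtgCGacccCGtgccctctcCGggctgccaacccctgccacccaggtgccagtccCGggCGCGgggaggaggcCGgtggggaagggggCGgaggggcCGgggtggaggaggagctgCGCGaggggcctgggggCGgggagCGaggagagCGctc
DPP6 upstream start: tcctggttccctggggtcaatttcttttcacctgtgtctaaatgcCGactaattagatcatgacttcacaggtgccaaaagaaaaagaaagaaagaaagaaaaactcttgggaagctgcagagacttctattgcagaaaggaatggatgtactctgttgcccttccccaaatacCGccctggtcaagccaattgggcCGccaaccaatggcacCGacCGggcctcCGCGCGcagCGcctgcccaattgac
TCERG1L: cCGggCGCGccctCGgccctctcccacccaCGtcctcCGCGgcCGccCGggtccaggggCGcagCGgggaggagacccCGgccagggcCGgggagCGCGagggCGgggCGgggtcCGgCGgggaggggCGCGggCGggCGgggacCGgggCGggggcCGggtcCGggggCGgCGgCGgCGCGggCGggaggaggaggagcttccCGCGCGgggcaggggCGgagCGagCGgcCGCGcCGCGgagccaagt
TMEM132D: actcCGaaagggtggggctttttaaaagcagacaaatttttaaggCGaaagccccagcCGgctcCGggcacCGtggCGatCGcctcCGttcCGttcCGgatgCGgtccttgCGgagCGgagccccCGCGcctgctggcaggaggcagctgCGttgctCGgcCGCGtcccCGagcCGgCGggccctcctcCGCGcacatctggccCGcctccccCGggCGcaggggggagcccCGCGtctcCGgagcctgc

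These stretches held 32, 22, 9, 43 and 30 CpGs in that order, beside a median of 11 over 35116 RefSeq promoters cut to the same 250 bases. CCGG, the site cut by MspI, an enzyme widely used in RRBS, was found 2, 5, 1, 8 and 6 times, and in 58.5% of all promoters. CCGG reads the same on both strands and each match contains 1 of the CpGs. The tables used here held promoter sequences for 5 of the 7 genes, and those of FZD10 and CSMD1 are named only.

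The promoters of TCERG1L, PTPRT, TMEM132C, TMEM132D and FZD10 were nearly unmethylated in all 5 libraries, and that of DPP6 was lowly methylated. CSMD1 was nearly unmethylated in the window over its start and methylated in a shore window upstream that does not adjoin it. A promoter window was any window overlapping 1500 bases upstream to 500 bases downstream of the start, and 13 were measured, 12 of them in a CpG island. Averaged over the promoter windows of a gene and over the 5 libraries, the β-value was 0.75% in PTPRT, 1.02% in TCERG1L, 1.25% in FZD10, 1.26% in TMEM132D, 3.14% in TMEM132C, 9.8% in DPP6 and 41.4% in CSMD1. Among all 16238 CpG-island windows that the table places in a promoter, 76.6% were under 20% and 14.3% over 80% on the mean of the 5 libraries.

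TCERG1L lies on the minus strand at chr10:131092391-131311721. Its window over the start, chr10:131311001-131312000, was at 0.719% in the vehicle control, 0.754% with etoposide, 0.885% with propyl gallate, 0.82% with theophylline and 0.623% with 5-aza-dc. The next window upstream, chr10:131312001-131313000, was at 1.64%, 1.51%, 1.28%, 1.47% and 0.513% in the same order. The 5-aza-dc library stood below the other four there, with 18 methylated of 3542 calls against 50 of 3058 in the vehicle control, a difference of -1.12 percentage points (Fisher's exact test, two-sided, Benjamini-Hochberg adjusted over all windows, adjusted exact p = 1.38e-04, and 0.033 with all calls divided by 2). This test compares 2 libraries and not 2 conditions.

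PTPRT, a receptor-type protein tyrosine phosphatase, lies on the minus strand at chr20:42072752-43189970. Its promoter mean was 0.804% in the vehicle control, 0.589% with etoposide, 0.887% with propyl gallate, 0.642% with theophylline and 0.827% with 5-aza-dc, with overlapping 95% Wilson intervals of the pooled calls (0.378% to 1.32% over the 5 libraries). TMEM132C (chr12:128267170-128707911, plus strand) and TMEM132D (chr12:129071725-129904025, minus strand) encode related single-pass membrane proteins of the TMEM132 family. The TMEM132C promoter stood at 2.59%, 3.75%, 3.59%, 2.02% and 3.74% in the order given above. That of TMEM132D stood at 0.78%, 1.24%, 1.28%, 1.62% and 1.39%, so that the vehicle control was the lowest library. No promoter window of these 3 genes reached an adjusted p under 0.01 with any chemical, the lowest being 0.0128 for TMEM132D in theophylline.

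CSMD1, a large membrane protein with CUB and Sushi domains that regulates complement, lies on the minus strand at chr8:2935353-4994972. The window over its start was at 0.952% in the vehicle control, 0.95% with etoposide, 1.2% with propyl gallate, 0.951% with theophylline and 0.336% with 5-aza-dc, from 1227 to 1768 calls. The shore window centred 1.5 kb upstream was at 82.6%, 83.5%, 83.3%, 83.8% and 76.4%, the 5-aza-dc library again lowest (-6.21 points from the vehicle control, adjusted exact p = 0.0882). The promoter mean of CSMD1 therefore mixes both states. By the root mean square difference over the 5 libraries, the nearest of the 13093 other genes with at least as many promoter windows were CRLF3 (0.412 points), TSPAN11 (0.711 points) and AMN (0.846 points). This nearness is of the mixed mean only, and the single promoter windows of those genes were not compared.

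Among the promoter windows in CpG islands, that of DPP6 had the highest methylation and the widest range between libraries. It encodes an enzymatically inactive relative of dipeptidyl peptidase 4 that serves as an auxiliary subunit of Kv4 potassium channels, and it lies on the plus strand at chr7:153887097-154894285. The window before the start, chr7:153886001-153887000, whose last bases are the first part of the first sequence above, was at 13.1% in the vehicle control (95% Wilson interval 11.8% to 14.6%, 2237 calls). It was at 5.92% with etoposide (4.79% to 7.27%), 10.2% with propyl gallate (9.05% to 11.4%), 8.1% with theophylline (6.99% to 9.42%) and 11.7% with 5-aza-dc (10.3% to 13.2%). The etoposide library was lower than the vehicle control by Fisher's exact test (-7.22 points, adjusted exact p = 3.34e-10), and so was that of theophylline (-5.04 points, adjusted exact p = 9.17e-06, and 0.0145 with all calls divided by 2).

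The nearest measured window on the other side of the DPP6 start, chr7:153888001-153889000, in an intron by the table's annotation, moved the other way in these libraries. It was at 14.7% in the vehicle control (13.3% to 16.2%), 24.6% with etoposide (22.8% to 26.4%), 14.8% with propyl gallate (13.1% to 16.7%), 22% with theophylline (20.4% to 23.7%) and 20.6% with 5-aza-dc (19.1% to 22.3%). Etoposide (9.9 points, adjusted exact p = 9.79e-14), theophylline (7.34 points, adjusted exact p = 2.59e-08) and 5-aza-dc (5.97 points, adjusted exact p = 3.63e-06) were higher than the vehicle control, while propyl gallate differed by 0.115 points. All 3 kept an adjusted p under 0.01 with the calls divided by 2. The 1000 bases between both windows, which hold the start itself, are not among the windows analysed here.

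The internal DPP6 start lies in an unmethylated island within the gene. Its window, chr7:154052001-154053000, was at 2.64% in the vehicle control, 2.47% with etoposide, 0.788% with propyl gallate, 1.66% with theophylline and 2.36% with 5-aza-dc, so propyl gallate was lowest, at -1.85 points and an adjusted p under 0.01. The neighbouring island windows on either side ran from 4.77% to 7.24% and from 2.3% to 4.01%. The next windows upstream, centred 163.4 kb and 162.4 kb from the main start, were at 77.8% to 92.5% and 89.3% to 97%.

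The upstream DPP6 start lies outside the gene as the table places it, so its windows are not among the 629, and they were looked at after the values of the other starts were seen. The island window after that start, chr7:153748001-153749000, was at 22.2% in the vehicle control, 39.4% with etoposide, 23.6% with propyl gallate, 23.6% with theophylline and 26.4% with 5-aza-dc, from 385 to 564 calls. Etoposide stood above the other libraries, and was tested only against the vehicle control (adjusted exact p = 1.62e-06). Before it, the shore window was at 88% to 93.9%.

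The CpG islands of the 7 genes were low near the start that the deposited table gives for each gene, and mostly high further away. All 22 island windows centred within 5 kb of a start were under 20% on the mean of the 5 libraries (median 1.82%, highest 19.3%). Of the 32 further away, 23 were over 80%, 4 between 20% and 80% and 5 under 20%. The 5 low ones were all in DPP6, which had 10 distant island windows, while the 22 distant island windows of the other genes ran from 61% to 96.4%. Among those low ones, the windows centred at 164.4, 165.4 and 166.4 kb lie around the internal DPP6 start described above. Across the whole table, 51.8% of island windows were under 20%, beside 27 of the 54 in these genes.

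In DPP6 a second low island lay 417.4 kb inside the gene at 3.62% to 6.34% (the window next to it held 56 to 106 calls and was at 0% to 7.58%), and its island 907.4 kb inside was partly methylated. That window, chr7:154794001-154795000, was at 37.4% in the vehicle control, 41.7% with etoposide, 41.1% with propyl gallate, 27.9% with theophylline and 38.9% with 5-aza-dc. The theophylline library stood below the other four (26% to 29.9%, 583 of 2088 calls), at -9.45 points from the vehicle control (adjusted exact p = 1.69e-08). The island of TMEM132D 48.5 kb inside the gene, which the table gives as a promoter, was likewise partly methylated, at 63.7%, 64%, 62.2%, 61.6% and 53.2% in the same order. It was lowest in 5-aza-dc (against the vehicle control, adjusted exact p = 0.0143).

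FZD10, a Frizzled receptor for Wnt ligands encoded by a gene of 3.3 kb at chr12:130162459-130165740 (plus strand), was the only member whose measured windows inside the gene were all low and all in a CpG island. Its 3 promoter windows were at 0.641% to 1.95%. Next to them the window centred 1 kb after the start was at 7.46% in the vehicle control, 6.89% with etoposide, 5.88% with propyl gallate, 7.79% with theophylline and 6.59% with 5-aza-dc, and that centred 2 kb after it was at 14%, 13.2%, 14.2%, 14.6% and 13.1%. Methylation thus rose from the start to the end of the gene in every library. In the window centred 1 kb upstream the vehicle control was highest, at 1.95% against 1.12%, 0.886%, 0.641% and 1.19%. Propyl gallate (-1.06 points, adjusted exact p = 0.00877) and theophylline (-1.31 points, adjusted exact p = 6.58e-04) were lower there by Fisher's exact test, and neither stayed under 0.01 with all calls divided by 2 (adjusted p of 0.16 and 0.0667). The table assigns the 3 promoter windows to FZD10-AS1, an antisense gene that shares this island.

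**Figure D1:**
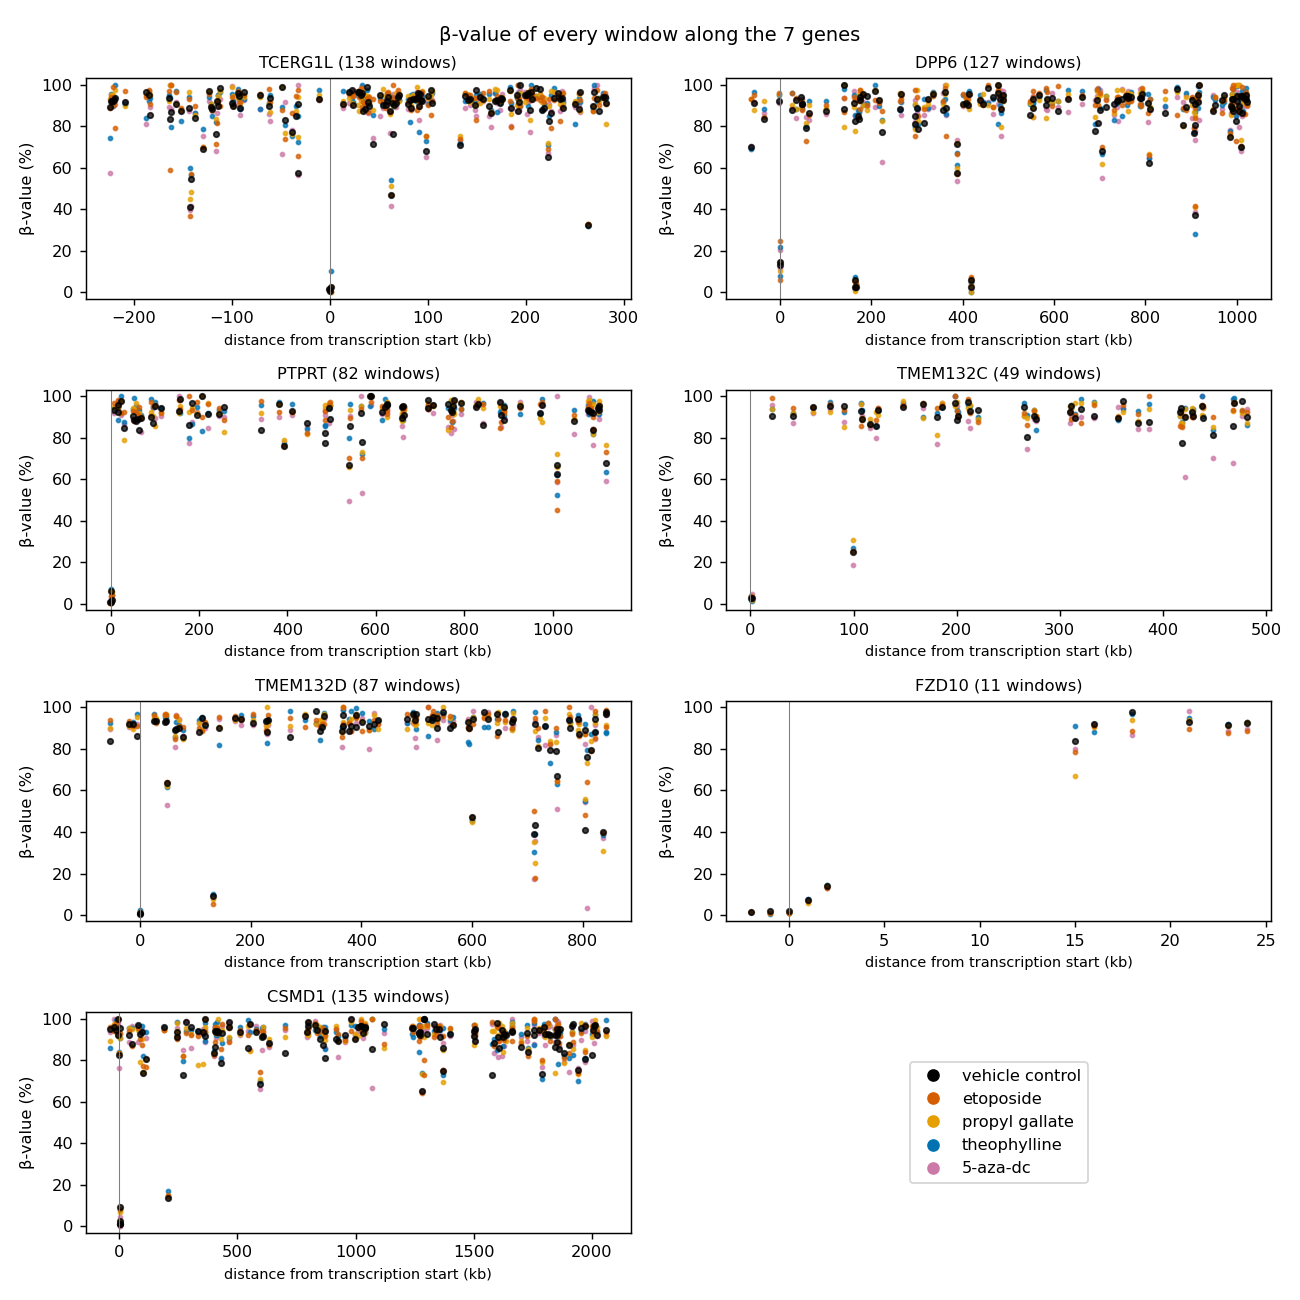
β-value in percent (vertical axes) of every window of the 7 genes against distance from the transcription start in kb (horizontal axes, minus values upstream), with 1 point for each library. Low windows cluster at the starts and, in DPP6, also at 165.4 and 417.4 kb, with single low windows at 132.5 kb in TMEM132D and 207.5 kb in CSMD1, and most others lie above 80%.

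Away from islands the genes were highly methylated. Windows over 80% made up 88.4% of the 629, beside 80.7% of all windows, and windows under 20% made up 4.6%, beside 10.8%. Island windows were 8.6% of the members and 17.3% of the table. Within the class outside islands, shores and shelves the shares were closer, with 92.3% of 533 member windows and 91.0% of all such windows over 80%.

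Between 20% and 80% there were 44 member windows (7%, beside 8.5% of all), 39 of them outside islands, shores and shelves. Some were partly methylated to the same degree in every library. The TCERG1L window chr10:131048001-131049000, 263.2 kb downstream of the start and beyond the gene, was at 32.4%, 32.7%, 33%, 32.2% and 32.5% from 480 to 755 calls. A TMEM132D window 600.5 kb inside the gene was at 47.1%, 47.3%, 45%, 45.8% and 45.3%. In 6 of the 44 the libraries spanned less than 5 points. Another of them, the TMEM132C window 99.3 kb inside the gene, was at 25.1%, 25.3%, 30.6%, 26.6% and 18.6%, lowest in 5-aza-dc and highest in propyl gallate. Against the vehicle control the adjusted exact p was 0.00828 for 5-aza-dc and 0.0265 for propyl gallate. Low methylation outside an island was seen in TMEM132D 132.5 kb inside the gene (5.57% to 10.1%) and in CSMD1 207.5 kb inside it (13.5% to 17.1%).

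The 629 windows averaged 85.8% in the vehicle control, 86.5% with etoposide, 86.7% with propyl gallate, 86.7% with theophylline and 84.7% with 5-aza-dc. The difference from the vehicle control was 0.709 points for etoposide (95% counting interval 0.461 to 0.957, beside 0.513 over all windows) and 0.923 for propyl gallate (0.682 to 1.16, beside 0.566). It was 0.955 for theophylline (0.706 to 1.2, beside 0.975) and -1.02 for 5-aza-dc (-1.29 to -0.756, beside -1.03). The 7 genes thus followed the whole table in the direction of each chemical. Pooling all calls, which weights each window by its depth in each library, gave 0.125, -0.218, 0.87 and -3.17 points. Over all windows it gave 0.515, 0.407, 1.5 and -2.84, so the sign for propyl gallate in the members differed between both measures. The share of member calls in windows under 20% also varied by library. It was 15% in the vehicle control and 15.6%, 15.8%, 15% and 17.5% with the chemicals in that order. Its part in the pooled values was not tested. Without reference to the vehicle control, the 5-aza-dc library was the lowest of the 5 in 35.9% of member windows and 35.1% of all windows.

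On the log2 scale used in the study, leaving out windows at 0, the mean ratio to the vehicle control was 0.011 for both etoposide and propyl gallate, -0.037 for 5-aza-dc and 0.015 for theophylline, beside 0.001, 0.002, -0.037 and 0.021 over all windows. With each gene weighted equally etoposide, propyl gallate and theophylline turned to -0.018, -0.025 and -0.011, and FZD10 alone had ratios of -0.229, -0.281 and -0.180 over its 11 windows.

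Gene by gene, 5-aza-dc was lower than the vehicle control in all 7 means. The difference was -2.41 points in TMEM132C (-3.38 to -1.45), -1.42 in TCERG1L, -1.44 in PTPRT, -1.3 in TMEM132D and -1.7 in FZD10. Of the TMEM132D difference a large share came from 1 window with 23 calls in 5-aza-dc, without which the mean was -0.469, and the median over its 87 windows was -0.0683, with 50.6% of them lower. Without its window of the largest 5-aza-dc difference FZD10 was at -0.747. In DPP6 (-0.394, interval -1.03 to 0.243) and CSMD1 (-0.214, interval -0.751 to 0.323) the counting interval included 0. For theophylline the means of all 7 genes were higher than the vehicle control, by 0.32 (FZD10) to 1.62 points (TMEM132C). The counting interval included 0 in PTPRT, TMEM132D and FZD10. Without its window of the largest theophylline difference FZD10 was at -0.354. For etoposide and propyl gallate the means of 6 genes were higher than the vehicle control, by 0.508 to 1.38 and 0.571 to 1.33 points, although the interval included 0 in TCERG1L, PTPRT and TMEM132D for etoposide and in TMEM132D for propyl gallate. That of FZD10 was lower, at -2.77 (-3.75 to -1.8) and -2.3 (-3.2 to -1.4). The etoposide library was below the vehicle control in 90.9% of the 11 FZD10 windows and that of propyl gallate in 72.7%. Without the window centred 15 kb from the start the propyl gallate mean was -0.831, and the medians over the 11 windows were -1.29 for etoposide and -0.962 for propyl gallate. The largest etoposide difference in FZD10 lay beyond the gene, where the window centred 18.0 kb from the start was at 98% in the vehicle control, 88.5% with etoposide, 94.1% with propyl gallate, 96.9% with theophylline and 86.7% with 5-aza-dc.

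**Figure D2:**
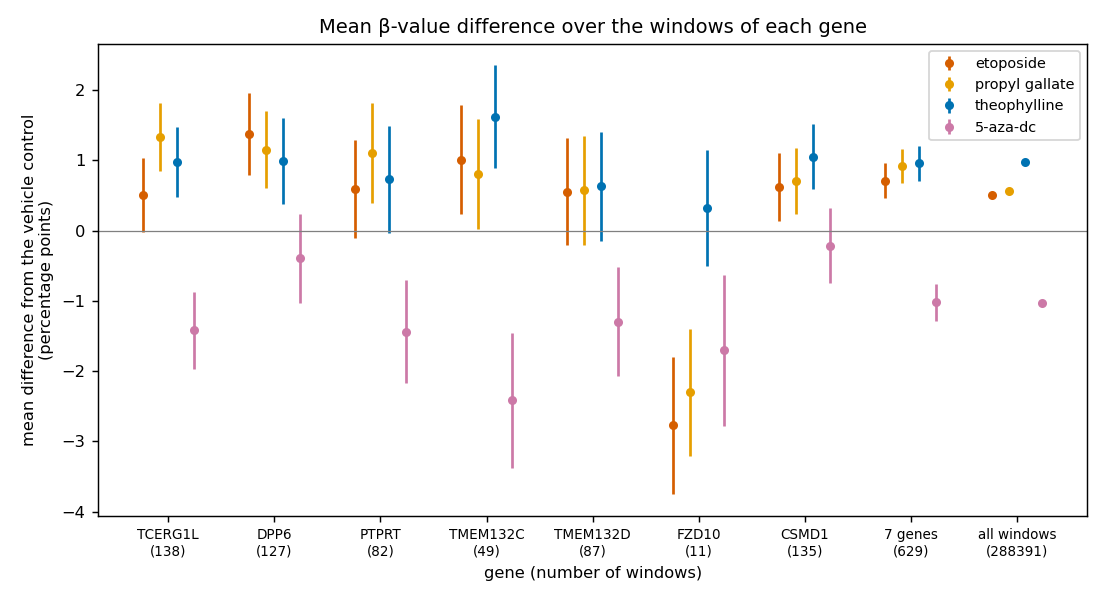
Mean difference in β-value from the vehicle control in percentage points (vertical axis) over the windows of each gene, of the 7 genes together and of the whole table (horizontal axis, number of windows in brackets), with 95% counting intervals. FZD10 lies at -2.77 for etoposide and -2.3 for propyl gallate, while the other 6 genes lie above 0 for both. Theophylline lies above 0 in all 7 genes.

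A window was called different when the adjusted p was under 0.01 and the difference at least 10 points. After etoposide 13 of the 629 windows were called higher (2.07%, beside 1.36% of all windows) and 6 lower (0.954%, beside 0.956%). After propyl gallate 7 were higher (1.11%, beside 1.34%) and 5 lower (0.795%, beside 0.88%). After theophylline 11 were higher (1.75%, beside 1.59%) and 5 lower (0.795%, beside 0.681%). After 5-aza-dc 6 were higher (0.954%, beside 0.876%) and 20 lower (3.18%, beside 2.76%). Most shares lay near those of the whole table. The widest gap, that of the higher windows of etoposide, rests on 13 windows and was not tested. With calls divided by 2 the called windows fell from 19, 12, 16 and 26 to 3, 2, 3 and 10. The share of all windows called in that setting was not counted, so these counts cannot be set beside the whole table.

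At least 25 points separated the libraries in 1 called window for etoposide (0.191% of all windows were called so), none for propyl gallate (0.177% of all) or theophylline (0.175% of all), and 4 for 5-aza-dc (0.309% of all). None of the 13 promoter windows was called with any chemical (beside 4.31% of all island windows in a promoter). Most of the 13 lay under 10% in every library, where a fall of 10 points cannot occur. Under 20% were 92.3% of the 13, beside 76.6% of all island windows in a promoter, so both shares are not at matched levels. Of the 54 island windows 1 was called (1.85%, beside 5.49% of all island windows), in TCERG1L 103.2 kb inside the gene. It was at 97.3% in the vehicle control, 85.2% with etoposide, 94.9% with propyl gallate, 92.2% with theophylline and 95.1% with 5-aza-dc (etoposide -12.1 points, adjusted exact p = 3.46e-08).

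Among windows with at least 30 calls in both libraries and an adjusted p under 0.01, the largest falls with 5-aza-dc were in the region upstream of TCERG1L. The window chr10:131360001-131361000, centred at -48.8 kb from the start, was at 99.1% in the vehicle control (232 of 234 calls), 87.9% with etoposide, 99.1% with propyl gallate, 89.2% with theophylline and 66.7% with 5-aza-dc (135 of 203 calls). The 5-aza-dc difference was -32.5 points (adjusted exact p = 1.80e-20), and etoposide also stood lower by at least 10 points (-11.2, adjusted exact p = 4.45e-06). The window chr10:131535001-131536000, centred at -223.8 kb, was at 89.2%, 88.8%, 93.1%, 74.5% and 57.7%, lower in 5-aza-dc (-31.6 points, adjusted exact p = 1.12e-08) and in theophylline (-14.7, adjusted exact p = 0.00185). This was the member window with the widest range among those with at least 30 calls in all libraries, 35.4 points. The table assigns both windows to TCERG1L as intergenic.

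Other windows with a wide range were in gene bodies. The TMEM132C window 421.3 kb inside the gene was at 90.1%, 90.4%, 93.9% and 94% in the first 4 libraries. It was at 61.2% in 5-aza-dc, from 55 calls (against the vehicle control, adjusted exact p = 0.00112). The PTPRT window 540.5 kb inside the gene was at 66.8%, 70.2%, 65.9%, 80% and 49.6%, with no adjusted p under 0.01. The DPP6 window 998.4 kb inside the gene, at 82.6%, 72.9%, 84.7% and 85.6% in the other libraries, had every one of its 113 calls methylated in propyl gallate (17.4 points above the vehicle control, adjusted exact p = 4.52e-06). A TMEM132D window 807.5 kb inside the gene fell from 76.1% of 243 calls to 3.57% in 5-aza-dc, but on 23 calls (interval 0.772% to 21%), too few for the rule that chose the named windows.

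Among windows with at least 30 calls in both libraries and an adjusted p under 0.01, the largest rise for every chemical was in 1 CSMD1 window. In chr8:3416001-3417000, an intronic window outside islands, the level was 72.8% in the vehicle control (66.4% to 78.4%, 150 of 206 calls), 98.3% with etoposide, 93.9% with propyl gallate, 87.7% with theophylline and 97.5% with 5-aza-dc. The vehicle control was the library that stood apart there, and its value enters all 4 comparisons (differences of 25.5, 21.1, 14.9 and 24.7 points). The CSMD1 window 702.5 kb inside the gene had the same form, at 83.4% in the vehicle control and 95.6%, 91.1%, 96.8% and 94.5% after the chemicals. It was called with 3 chemicals, and the former with 4. In all, 60 of the 629 windows were called with at least 1 chemical (9.54%, beside 8.11% of all windows).

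The remaining named changes were spread over 4 genes. The vehicle control was the lowest library in the PTPRT window 485.5 kb inside the gene, with every chemical above it. That window was at 77.4% in the vehicle control, 93% with etoposide, 95.9% with propyl gallate, 86.2% with theophylline and 90.8% with 5-aza-dc (propyl gallate 18.5 points, adjusted exact p = 5.65e-06). Propyl gallate stood lower in the FZD10 window centred 15 kb from the start, at 66.8% against 83.8% in the vehicle control and 78.7%, 90.9% and 80% in the others (-17 points, adjusted exact p = 1.42e-04). It was also lower in CSMD1 88.5 kb inside the gene (92.6% to 79.3%, adjusted exact p = 2.08e-04), and theophylline in CSMD1 1858.5 kb inside it (93.5% to 78.3%, adjusted exact p = 4.56e-05). The vehicle control was also the lowest library in a TCERG1L window 64.2 kb inside the gene, at 76.3% of 76 calls. That window had every one of its 42 calls methylated with etoposide, and was at 92%, 91.7% and 95.3% with the others. Etoposide was lower in TCERG1L at -218.8 kb (93.8% to 78.9%, adjusted exact p = 0.00382). Of the 16 largest changes named by the rule, 6 kept an adjusted p under 0.01 with the calls divided by 2. In this paragraph only that of PTPRT with propyl gallate did so. The rest were TCERG1L at 103.2 kb with etoposide and CSMD1 at 702.5 kb with theophylline. With 5-aza-dc they were CSMD1 at 1578.5 kb and TCERG1L at -48.8 and -223.8 kb.

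The spread between the 5 libraries was somewhat wider in these genes than in the table as a whole. The median range of a window was 7.2 points, beside 6.32 over all windows, and 15 windows (2.38%, beside 1.87%) ranged over more than 25 points. At matched levels the medians were 6.65 and 5.99 points for windows over 90% methylated (456 member windows), and 10.4 and 8.84 points from 70% to 90% (119 windows). From 30% to 70% they were 14.8 and 11.3 points (24 windows). The member windows were also covered less deeply, with a median lowest library of 119.5 calls against 309 in the class from 30% to 70% and 248.5 against 322 over 90%, and the part of depth in the wider range was not tested. With at least 30 calls in every library the medians in the class from 30% to 70% were 13.6 and 10.8 points. At the promoters the ranges were small, with a median of 1.12 points over the 13 windows.

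Related genes gave a frame for these promoters. Of 22 paralogues of the members, 18 had promoter windows, of which 12 were under 10%, 5 between 10% and 80% and 1 over 80% (DPP9, at 91.2%). FZD9, a Frizzled gene related to FZD10, had the widest range among them, with 59.2% in the vehicle control, 56.8% with etoposide, 81.1% with propyl gallate, 61.9% with theophylline and 58.3% with 5-aza-dc. A list of 9 names of further loci with variable methylation among iPSC lines gave 6 genes with promoter windows, of which 3 were under 10% (TAFA5, TRIM4 and ZNF354C), while RBFOX1 (31.5%) and C9orf64 (38.1%) lay higher. Of the 422 windows of the paralogues, 1, 5, 3 and 2 were called higher and 4, 2, 3 and 7 lower, with the chemicals in the order used above, and of the 423 windows of the further loci 9, 8, 6 and 6 were higher and 3, 4, 6 and 8 lower. Of all windows 1.36%, 1.34%, 1.59% and 0.876% were called higher and 0.956%, 0.88%, 0.681% and 2.76% lower, in the same order. Called with at least 1 chemical were 4.74% of the windows of the paralogues and 7.8% of those of the further loci, beside 8.11% of all windows. Over all 22560 genes with promoter windows, 9137 were under 10%.

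Genes of pluripotent cells served to check the label. Promoter means were under 10% for DPPA4, SALL4, LIN28A, DNMT3B and L1TD1, but ZFP42 was at 28.9%, DPPA2 at 84.5% and POU5F1 at 90% over the windows measured. No window over the RefSeq start of POU5F1 was among those analysed, so its value does not describe that start, and NANOG and TDGF1 had no promoter window. The ZFP42 mean ran from 20% in 5-aza-dc to 34.8% in the vehicle control, and its window over the RefSeq start from 37.2% to 60.9%. Over the RefSeq starts of the other 3 markers with such a window, DPPA4 was at 0.165% to 1.15%, L1TD1 at 10.3% to 16% and DPPA2 at 73.7% to 81.6%, so 1 of 4 was under 10% in all libraries. The markers were listed for promoters known to be unmethylated in pluripotent cells, and most of the starts that could be read were over 10%. Why they were was not tested. Low methylation at the starts of POU5F1 and NANOG, which marks pluripotent cells, could not be checked here.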

How the data were processed

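Reads were trimmed, aligned and called by the authors, and the submitters' processing notes name FastQC 0.11.7, Trim Galore 0.5.0, Bismark 0.20.0, SAMtools 1.9, methylKit 1.10.0 and the hg38 build, so coordinates are on GRCh38 as deposited. CpG calls were summed over windows of 1000 bases, scaled between libraries, filtered below a coverage of 10 and for extreme coverage, and merged over the 5 libraries. Calls of the vehicle control were deposited as counts. In the other 4 libraries the deposited calls are a score, counts multiplied by the authors by a factor (etoposide 1.179, propyl gallate 1.087, theophylline 1.155, 5-aza-dc 1.211) and rounded. The deposited β-value is a fraction, given here in percent.

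The plan was to apply Fisher's exact test to counts as deposited, but it was applied to calls divided by these factors and rounded, which gave back 100.00% of the deposited coverages and methylated calls. Tests were two-sided with Benjamini-Hochberg adjustment over 288391 windows. On data simulated with independent calls for 5-aza-dc against the vehicle control, 198 of 200 windows changed by 30 points were recovered with the right sign. Together with them 2 unchanged windows were called. The changed windows were drawn only from deeper windows of intermediate to high methylation. These counts therefore check the code and do not give an error rate for smaller changes or for the real calls. In the vehicle control 63.9% of the low methylated call counts were even, so calls are not independent observations.

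Windows named are all promoter windows, island windows by class, the 2 largest rises and 2 largest falls per chemical that passed 0.01 and had 30 or more calls in each of the compared libraries, and the 5 widest ranges with at least 30 calls in all libraries. Other windows were chosen after their values were seen. The genes, lists and rules were chosen with earlier results of these data known. Some genes of the comparison lists are not reported here by name. Promoter sequences are from RefSeq. Python 3.11.15, numpy 2.4.6, pandas 2.3.3, scipy 1.17.1, numba 0.67.0 and matplotlib 3.10.9 were used.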

Additional observations from a re-analysis of the deposited data

How the results depend on the processing

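Of 83 values recomputed under alternatives, 49 stayed within their interval or within 1.5 times the count, 30 moved and 4 changed sign. The called windows numbered 19, 12, 16 and 26 for etoposide, propyl gallate, theophylline and 5-aza-dc. They became 1, 0, 0 and 4 with a minimum of 25 points, and 3, 2, 3 and 10 with calls divided by 2. The share of all windows called with calls divided by 2 was not counted. With windows assigned by gene symbol only they were 9, 5, 5 and 11. That setting keeps only the 98 windows from the assignment alone and the 145 from both, so it counts over fewer windows than the 629. Pooling calls gave a mean difference of 0.125 points for etoposide, -0.218 for propyl gallate and -3.17 for 5-aza-dc. Equal weight per gene gave 0.271 for etoposide and 0.482 for propyl gallate, and mean log2 ratios of -0.018, -0.025 and -0.011 for etoposide, propyl gallate and theophylline and -0.056 for 5-aza-dc. Windows by symbol only gave 1.28 points for propyl gallate and log2 ratios of 0.030 for propyl gallate and 0.028 for theophylline. For 5-aza-dc, medians gave -0.654 points and -0.014, and a reference averaged over all 4 others gave -1.67 points and -0.048. With the start window only, the promoter β-value was 0.76% in TCERG1L, 1.11% in FZD10 and 0.877% in CSMD1, and pooled calls gave 18.9% in CSMD1. With at least 30 calls in all libraries the median range was 6.96 points in the members and 6.11 in all windows. Leaving out the window of the largest difference, an alternative chosen after seeing the data, kept 26 of 28 gene means within their interval and moved TMEM132D in 5-aza-dc to -0.469 and FZD10 in propyl gallate to -0.831. The cause of these shifts was not tested. No paired analysis was possible because each condition has 1 library. Depth limits the windows under 30 calls in some library, 38 of the 629.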

Other observations

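Among the member windows at least 10 points away from each of the other 4 libraries, 13 had 5-aza-dc as the low library (2.07%, beside 1.8% of all windows), 5 etoposide (0.795%, beside 0.554%) and 5 propyl gallate (0.795%, beside 0.442%). Theophylline was the low one in 2 (0.318%, beside 0.38%) and the vehicle control in 2 (0.318%, beside 0.534%). As the high library, propyl gallate stood alone in 3 (0.477%, beside 0.162%), 5-aza-dc in 2 (0.318%, beside 0.163%), etoposide in 1 (0.159%, beside 0.195%), theophylline in 1 (0.159%, beside 0.204%) and the vehicle control in 0 (beside 0.106%). In PTPRT the 5-aza-dc library was the lowest of the 5 in 45.1% of 82 windows and in TMEM132C in 42.9% of 49, against 30.7% in DPP6 and 31.0% in TMEM132D. Calls in windows under 20% methylated made up 15% of all member calls in the vehicle control and 17.5% in 5-aza-dc.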
